A study of Mus musculus with 24 samples.

Results

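Serinc2, Serpinb1a, Magohb and Lpin3 were 4 of the 49568 gene symbols counted in the hippocampus of mice from standard cages (SH) or enriched ones (EE). They were chosen from results of these data, because they were called between EE and SH when the 22 libraries that passed quality control were all kept, and not only the 17 that the study used. Each gene was therefore followed library by library across the 4 groups and against Ttr, the transthyretin gene, a hallmark transcript of choroid plexus. The housing difference chose the genes, so its values below are a description and carry no weight as a test.

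Wild-type (WT) mice were compared with MSK1 kinase-dead (MSK1 KD) mice, which carry on both copies of the Rps6ka5 gene a point mutation that inactivates the kinase without removing its RNA. All mice were males on a C57-Bl/6J background, to which the mutants were backcrossed from C57-Bl/6n, labelled as 12 weeks old, and the WT and MSK1 KD animals came from separately kept lines. EE mice had lived since before birth in large shared cages with a running wheel and objects, whereas SH mice had lived in ordinary cages. The labels do not say which mice shared a litter or a cage, so p-values measure the spread between libraries and litter or cage cannot be told apart from housing. The 22 libraries were 6 of WT SH, 5 of WT EE, 6 of MSK1 KD SH and 5 of MSK1 KD EE, each from whole hippocampus.

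MSK1 is a nuclear kinase that is switched on by the MAP kinase cascades and phosphorylates the transcription factor CREB and histones. Serinc2 encodes a serine incorporator, a family of multipass membrane proteins linked to the serine lipids of membranes. Serpinb1a encodes a clade B serpin, a cytoplasmic inhibitor of neutrophil serine proteases and of inflammatory caspases. Magohb encodes a near copy of Magoh, a core subunit of the exon junction complex, which marks spliced mRNA and takes part in its nonsense-mediated decay. Lpin3 encodes a lipin, a phosphatidate phosphatase on the pathway to triacylglycerol and phospholipids.

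On GRCm38 and GENCODE M21, Serinc2 (ENSMUSG00000023232) lies on the minus strand of chromosome 4 from 130253495 to 130279205. Serpinb1a (ENSMUSG00000044734) lies on the minus strand of chromosome 13 from 32842092 to 32851185. Magohb (ENSMUSG00000030188) lies on the minus strand of chromosome 6 from 131284388 to 131293244, and Lpin3 (ENSMUSG00000027412) on the plus strand of chromosome 2 from 160880670 to 160906002. The promoter windows below, from RefSeq on GRCm38.p6, are shown because CREB is a substrate of MSK1. They hold the 250 bases before a start and the 30 bases from it, and 3 of the 4 genes, all but Serpinb1a, had an entry. Capitals mark the full CREB site TGACGTCA and its short form TGACG, or CGTCA on the other strand, and the short forms inside a full site are part of it.

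Serinc2, chr4:130275557-130275836, minus strand, where 3 coding transcripts start:
Serinc2 promoter: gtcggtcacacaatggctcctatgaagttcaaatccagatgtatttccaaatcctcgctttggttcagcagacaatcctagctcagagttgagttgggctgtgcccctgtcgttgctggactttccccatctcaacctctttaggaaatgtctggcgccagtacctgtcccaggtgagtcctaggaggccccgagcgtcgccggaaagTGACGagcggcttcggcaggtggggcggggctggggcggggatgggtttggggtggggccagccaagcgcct
Magohb, chr6:131293215-131293494, minus strand:
Magohb promoter: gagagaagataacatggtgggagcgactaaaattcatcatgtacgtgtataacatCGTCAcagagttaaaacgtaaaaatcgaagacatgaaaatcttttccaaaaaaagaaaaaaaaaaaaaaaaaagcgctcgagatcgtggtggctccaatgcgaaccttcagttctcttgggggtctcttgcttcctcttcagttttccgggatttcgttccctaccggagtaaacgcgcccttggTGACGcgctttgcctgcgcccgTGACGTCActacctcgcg
Lpin3, chr2:160887918-160888197, plus strand, where 3 coding transcripts start:
Lpin3 promoter: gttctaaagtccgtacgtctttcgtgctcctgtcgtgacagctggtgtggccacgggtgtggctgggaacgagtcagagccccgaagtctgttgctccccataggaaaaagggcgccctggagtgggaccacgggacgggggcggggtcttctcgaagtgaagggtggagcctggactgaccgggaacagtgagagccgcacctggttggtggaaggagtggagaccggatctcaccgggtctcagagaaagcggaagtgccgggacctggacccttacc

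The Magohb window held 1 full site, just after the annotated start, and 4 short forms, counting the pair inside the full site. The Serinc2 window held 1 short form and the Lpin3 window held neither. RefSeq has 2 further Serinc2 windows, not printed, with starts at 130275220 and 130271434, of which the first held 1 short form and the other none, and a further Lpin3 window, with its start at 160880670, that held neither. Of the 32817 RefSeq windows of 280 bases, 572 (1.743%) held the full site and 6521 (19.87%) the short form, on either strand. A match is a string of letters in a window and was not tested for binding.

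Depth and purity differed between the libraries. The 22 libraries held 8911999 to 56752074 counts on genes (median 30265878), so that a floor of 3 counts corresponded to 0.0529 to 0.337 CPM. Levels in CPM are counts relative to the total on genes, scaled by TMM factors throughout. Floors in CPM are without these factors. The summed level of 15 choroid plexus markers ranged from 229 to 4443 CPM in SH (median 319) and from 236 to 8455 CPM in EE (median 4064), with no marker at 0 in every library. The summed level of 10 mature oligodendrocyte markers ranged from 5189 to 7047 CPM in SH and from 4730 to 5787 CPM in EE. Neuronal (8960 to 10785 CPM) and astrocyte (3331 to 5112 CPM) marker sums were high in every library. Fewer cells of a type and less RNA per cell cannot be told apart in such bulk tissue. Thalamic markers were highest in WT SH library 12 (314 CPM) and striatal markers in WT SH library 14 (159 CPM). Rps6ka5 was at 24.9 ± 2.25 CPM (SD, n = 6) in WT SH, 21.4 ± 1.94 (n = 5) in WT EE, 25.5 ± 2.14 (n = 6) in MSK1 KD SH and 23.5 ± 3.32 (n = 5) in MSK1 KD EE, which checks nothing, since the mutation leaves the transcript in place.

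Whether the 4 genes were called with the 22 libraries depended on the comparison and on the test. In the edgeR quasi-likelihood fit of the 22 libraries, 18482 genes were tested after filtering. To be called, a gene needed a Benjamini–Hochberg adjusted p no higher than 0.05 and a log2 difference of at least 0.38 (1.3-fold) either way. For EE over SH averaged over the genotypes, 27 genes (0.146%) were called, 22 higher (0.119%) and 5 lower (0.0271%). Serinc2 and Lpin3 were among the former, and Serpinb1a and Magohb among the latter. In that comparison 2983 of the 18482 genes were at an unadjusted p under 0.05. Within WT mice alone or MSK1 KD mice alone, edgeR called 0 genes, with 1598 and 1779 at an unadjusted p under 0.05. The DESeq2 Wald test over the same libraries called 23 of 17896 genes (0.129%) within WT, among them Serinc2, Serpinb1a and Lpin3. Within MSK1 KD it called 4 of 18567 genes (0.0215%), which were Serinc2, Serpinb1a, Magohb and Nedd9. For the averaged comparison it called 214 of 17896 genes (1.2%), the 4 of this report included. Just inside the edgeR threshold of the averaged comparison lay Xdh and Sntb2 (adjusted p = 0.0456 for both), and just outside it Cgnl1 (adjusted p = 0.05004) and Lama1 (adjusted p = 0.0501). Magohb, at an adjusted p of 0.0451, ranked 23 of the 27 by p.

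Serinc2 was higher in every EE library than in every SH library. In WT SH it ranged from 6.21 CPM to 9.42 CPM with a median of 8.56 CPM, and in MSK1 KD SH from 5.67 to 9.33 CPM with a median of 7.92 CPM. The 5 WT EE libraries were at 10.3 CPM in 31B, 12.7 in 16, 13.6 in 17, 14.5 in 33A and 16.2 in 35A. The 5 MSK1 KD EE libraries were at 10.7 CPM in 9, 11.03 in 7, 11.05 in 8, 12.5 in 32A and 19.1 in 36A. The lowest enriched library was thus above the highest standard-housed one in either genotype, and 36A stood apart above the other MSK1 KD EE libraries. The means were 8.27 ± 1.30 CPM (SD, n = 6) in WT SH, 13.4 ± 2.18 (n = 5) in WT EE, 7.62 ± 1.27 (n = 6) in MSK1 KD SH and 12.9 ± 3.56 (n = 5) in MSK1 KD EE. EE exceeded SH on the fitted log2 scale by 0.71 (SE 0.15) in WT, 0.77 (SE 0.15) in MSK1 KD and 0.74 (SE 0.11, edgeR adjusted p = 0.00441) averaged over both.

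Serpinb1a moved the other way, and its EE and SH libraries did not overlap either. It ranged from 9.56 CPM to 11.8 CPM in WT SH with a median of 10.4 CPM, and from 9.25 to 16.3 CPM in MSK1 KD SH with a median of 11.1 CPM. The WT EE libraries were at 6.03 CPM in 35A, 6.78 in 16, 7.69 in 31B, 7.82 in 33A and 7.88 in 17. The MSK1 KD EE libraries were at 6.35 CPM in 9, 6.66 in 7, 7.04 in 36A, 7.99 in 32A and 8.65 in 8. The enriched values lay closely together, whereas MSK1 KD SH library 5, at 16.3 CPM, stood apart above the rest. The means were 10.4 ± 0.820 CPM (SD, n = 6) in WT SH, 7.24 ± 0.811 (n = 5) in WT EE, 11.6 ± 2.47 (n = 6) in MSK1 KD SH and 7.34 ± 0.958 (n = 5) in MSK1 KD EE. On the log2 scale EE minus SH came to −0.53 (SE 0.12) in WT, −0.62 (SE 0.12) in MSK1 KD and −0.58 (SE 0.09, edgeR adjusted p = 0.00441) averaged over both.

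Of the 18482 genes tested, 3 (0.0162%) had no overlap between the 12 SH and the 10 EE libraries. In 1 (0.00541%) EE lay above SH, and in 2 (0.0108%) below. They were Serinc2, Serpinb1a and Gstm7, a glutathione transferase gene that was lower in EE with a log2 fold change of −0.30 and therefore under the fold threshold. Gstm7 was chosen after its values were seen.

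The 5 lettered libraries among the 22 (31B, 32A, 33A, 35A and 36A) were all enriched, and what the letter stands for is not given. Without them Serinc2 ranged from 10.7 to 13.6 CPM in EE and Serpinb1a from 6.35 to 8.65 CPM. The averaged log2 fold change was then 0.60 for Serinc2 (edgeR adjusted p = 0.0276) and −0.57 for Serpinb1a (adjusted p = 0.0393). Without the 2 libraries that stood apart, 5 and 36A, an alternative added after the data were seen, it was 0.61 for Serinc2 and −0.51 for Serpinb1a (edgeR adjusted p = 0.00550 for both).

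The housing difference of Magohb was larger by value in MSK1 KD than in WT mice. In MSK1 KD SH it ranged from 2.98 CPM to 3.52 CPM with a median of 3.37 CPM, whereas the MSK1 KD EE libraries were at 1.53 CPM in 9, 1.99 in 7, 2.11 in 8, 2.30 in 32A and 2.33 in 36A, all below it. In WT SH it ranged from 2.26 CPM in library 12 to 3.29 CPM with a median of 3.05 CPM. The WT EE libraries were at 2.33 CPM in 17, 2.46 in 16, 2.55 in 31B, 2.72 in 35A and 2.98 in 33A, which overlapped the WT SH range. The means were 2.94 ± 0.389 CPM (SD, n = 6) in WT SH, 2.61 ± 0.250 (n = 5) in WT EE, 3.31 ± 0.211 (n = 6) in MSK1 KD SH and 2.05 ± 0.323 (n = 5) in MSK1 KD EE. The fitted EE minus SH difference (log2) was −0.17 (SE 0.12) in WT, −0.64 (SE 0.13) in MSK1 KD and −0.40 (SE 0.09, edgeR adjusted p = 0.0451) averaged over both. The share of all genes tested whose EE and SH libraries did not overlap within MSK1 KD was not computed. These values rested on 14 to 178 counts a library.

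The housing difference of Lpin3, the least abundant of the 4, was larger by value in WT than in MSK1 KD mice. In WT SH it ranged from 0.644 CPM to 1.17 CPM with a median of 0.939 CPM, and the WT EE libraries were at 1.69 CPM in 31B, 1.93 in 35A, 2.16 in 16, 2.69 in 17 and 2.82 in 33A, all above it. In MSK1 KD SH it ranged from 0.760 CPM to 1.73 CPM with a median of 1.25 CPM. The MSK1 KD EE libraries were at 0.995 CPM in 7, 1.10 in 9, 1.27 in 32A, 1.69 in 8 and 2.33 in 36A, so that only 36A lay above the MSK1 KD SH range. The means were 0.940 ± 0.174 CPM (SD, n = 6) in WT SH, 2.26 ± 0.486 (n = 5) in WT EE, 1.22 ± 0.393 (n = 6) in MSK1 KD SH and 1.48 ± 0.547 (n = 5) in MSK1 KD EE. As log2 fold changes, EE over SH gave 1.26 (SE 0.23) in WT, 0.35 (SE 0.24) in MSK1 KD and 0.81 (SE 0.16, edgeR adjusted p = 0.0406) averaged over both. Without 36A the value in MSK1 KD was 0.12. The share of all genes tested whose EE and SH libraries did not overlap within WT was not computed. The counts of Lpin3 were 10 to 128 a library, all above the floor.

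**Figure D1:**
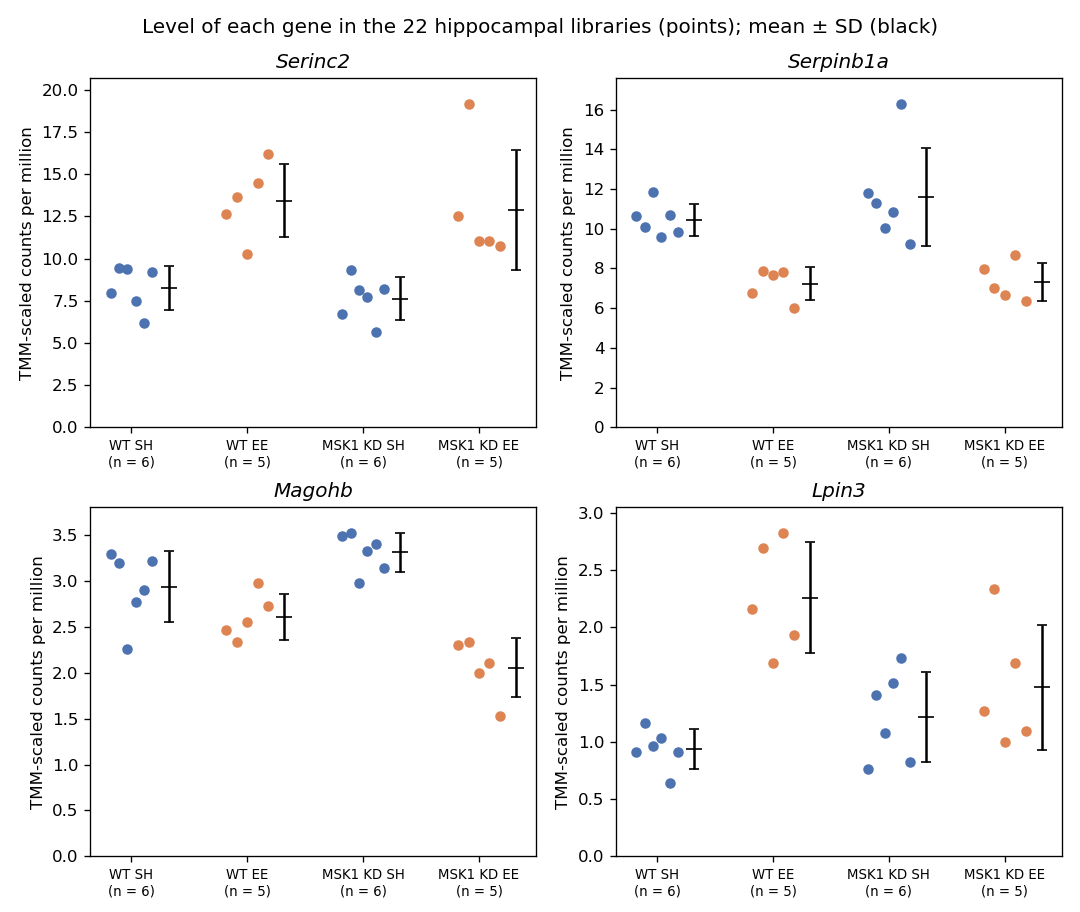
TMM-scaled CPM of each gene in the 22 libraries, 1 point a library, in the 4 groups, with the mean ± SD of each group in black and axes that start at 0. Every EE library lay above every SH library for Serinc2 and below every SH library for Serpinb1a, whereas the groups overlapped for Magohb in WT and for Lpin3 in MSK1 KD.

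Set in order, the group means of Serinc2 and of Serpinb1a fell into 2 levels by housing. WT EE and MSK1 KD EE differed from each other by less than the SD of either for both genes, as did WT SH and MSK1 KD SH for Serinc2. For Serpinb1a the SH means differed by more than the SD of WT SH. That difference was below the SD of MSK1 KD SH, the group of library 5. Magohb rose in the order MSK1 KD EE, WT EE, WT SH and MSK1 KD SH, and each pair of neighbours in that order overlapped. Lpin3 rose in the order WT SH, MSK1 KD SH, MSK1 KD EE and WT EE, and each pair of neighbours overlapped, as WT EE did with MSK1 KD SH. Per kb of exon, the SH level was 4.78 ± 0.803 CPM (SD, n = 12) for Serpinb1a, 3.42 ± 0.548 for Serinc2, 1.82 ± 0.207 for Magohb and 0.292 ± 0.0878 for Lpin3. That of Magohb may be too low, because of the shared sequence described below.

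The 4 genes were not chosen by a genotype difference, and genotype was compared for them in the same fit. With DESeq2, however, Lpin3 was called between the housings within WT only and Magohb within MSK1 KD only. A choice within a single genotype carries over into the genotype differences within each housing, which are therefore a description for both genes. None of them was called between WT and MSK1 KD mice, in SH, in EE or averaged over the housings. In these comparisons edgeR called 0 of the 18482 genes (0%), with 1065, 482 and 1120 at an unadjusted p under 0.05. DESeq2, with 35333 genes in each, called 2 (0.00566%), 0 and 0. Averaged over the housings, the log2 fold change of WT over MSK1 KD was 0.07 (95% interval −0.15 to 0.30) for Serinc2, −0.09 (−0.27 to 0.08) for Serpinb1a, 0.07 (−0.11 to 0.25) for Magohb and 0.09 (−0.25 to 0.43) for Lpin3. These intervals of the first 3 genes left no room for an averaged difference as large as the 1.3-fold threshold, and that of Lpin3 did. Within a single housing the intervals were wider. For Serinc2 the interval was −0.19 to 0.41 in SH, which passed the threshold, and −0.28 to 0.36 in EE. For Magohb it passed the threshold in both (−0.40 to 0.07 in SH and 0.04 to 0.58 in EE). Its differences had opposite signs in the housings and offset each other in the average. For Serpinb1a it stayed within the threshold (−0.37 to 0.09 in SH and −0.31 to 0.22 in EE).

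In EE alone, the level of Magohb was higher in WT than in MSK1 KD mice by 0.31 on the log2 scale (95% interval 0.04 to 0.58) and that of Lpin3 by 0.55 (0.05 to 1.04), and for both the edgeR adjusted p rounded to 1. In SH the same differences were −0.17 (−0.40 to 0.07) and −0.37 (−0.84 to 0.10). The housing difference of WT minus that of MSK1 KD was 0.48 (SE 0.17) for Magohb and 0.91 (SE 0.33) for Lpin3, with edgeR adjusted p that rounded to 1, and it was −0.07 (SE 0.21) for Serinc2 and 0.09 (SE 0.17) for Serpinb1a. This interaction is built from the contrasts that chose the genes and is given as a description. So are the genotype differences of Magohb and Lpin3 within EE and within SH. Across all genes edgeR called 0 for it, with 377 at an unadjusted p under 0.05, and DESeq2 called 0. The Magohb and Lpin3 housing differences within one genotype are thus not shown to differ from those within the other.

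Ttr separated the libraries into 2 sets that did not follow housing alone. Its level rose from 16.8 CPM in MSK1 KD SH library 5 to 5105 CPM in MSK1 KD EE library 36A, with a gap of 2.07 on the log2 scale between library 9 (164 CPM) and library 11 (686 CPM). Below the gap lay 9 SH and 3 EE libraries, and above it 3 SH and 7 EE libraries. The 6 libraries on the less usual side were EE libraries 31B (41.8 CPM of Ttr), 35A (34.2 CPM) and 9 (164 CPM) and SH libraries 11 (686 CPM), 12 (1667 CPM) and 2 (2635 CPM). Of these 6, all but 11 were among the 5 that the study left out for poor intragroup correlation.

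Because the housing groups of Serinc2 and Serpinb1a did not overlap over the 22 libraries, no subset of them could overlap, and the values in these libraries are a description. Serinc2 was at 10.3, 16.2 and 10.7 CPM in 31B, 35A and 9, and at 9.42, 9.38 and 9.33 CPM in 11, 12 and 2. Serpinb1a was at 7.69, 6.03 and 6.35 CPM in 31B, 35A and 9, and at 10.1, 11.8 and 11.3 CPM in 11, 12 and 2. The mean log2 CPM of EE minus that of SH was 0.71 below the gap and 0.50 above it for Serinc2, and −0.70 and −0.55 for Serpinb1a.

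The other pair of genes was less separated. Magohb was at 2.55, 2.72 and 1.53 CPM in 31B, 35A and 9, against 2.77 to 3.49 CPM in the 9 SH libraries below the gap. Above the gap its 7 EE libraries ranged from 1.99 to 2.98 CPM and its 3 SH libraries from 2.26 to 3.52 CPM. The mean difference of EE minus SH in log2 CPM was −0.51 below the gap and −0.32 above it. Lpin3 was at 1.69, 1.93 and 1.10 CPM in 31B, 35A and 9, against 0.644 to 1.73 CPM in the 9 SH libraries. Above the gap it ranged from 0.995 to 2.82 CPM in EE and from 0.963 to 1.41 CPM in SH, and the mean difference was 0.58 below the gap and 0.66 above it.

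**Figure D2:**
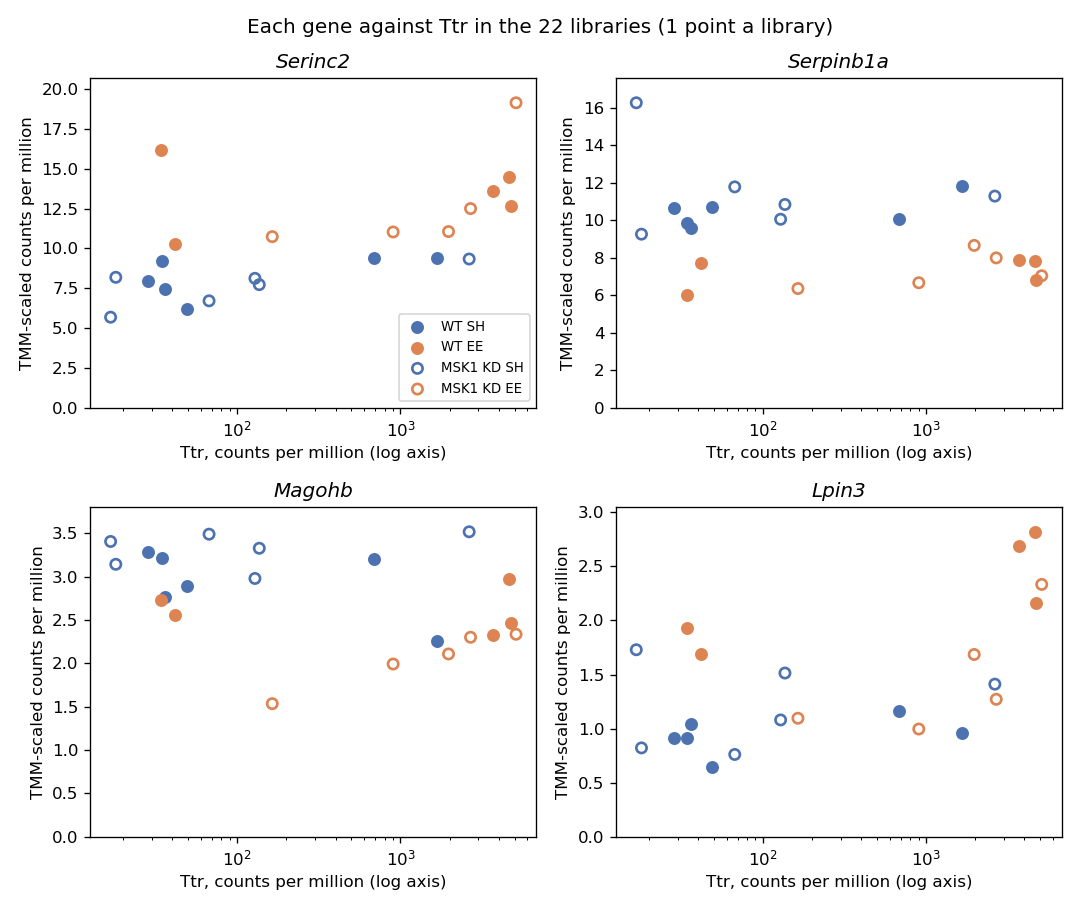
TMM-scaled CPM of each gene against that of Ttr (log axis) in the 22 libraries, 1 point a library, with SH in blue, EE in orange, WT filled and MSK1 KD open. The EE libraries lie 3 below and 7 above the gap in Ttr, and the SH libraries 9 below and 3 above.

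Because of the gap, correlations with Ttr were computed within each set only, as 8 relations of log2 CPM, with two-sided permutation tests of 100000 resamples. Among the 12 libraries below the gap, Pearson's r was 0.14 for Serinc2 (permutation p = 0.682), −0.29 for Serpinb1a (permutation p = 0.362), −0.46 for Magohb (permutation p = 0.138) and −0.03 for Lpin3 (permutation p = 0.917). The Spearman rho of these was 0.10, −0.02, −0.24 and −0.07 (permutation p = 0.750, 0.956, 0.446 and 0.835). Among the 10 libraries above it, r was 0.73 for Serinc2 (permutation p = 0.0169, adjusted 0.0676), −0.36 for Serpinb1a (permutation p = 0.311), 0.03 for Magohb (permutation p = 0.944) and 0.82 for Lpin3 (permutation p = 0.00340, adjusted 0.0272). The rho of these was 0.81, −0.47, 0.26 and 0.81 (permutation p = 0.00738, 0.181, 0.469 and 0.00705, the first and last adjusted to 0.0295). By r, Lpin3 alone of the 4 passed the threshold above the gap, and by rho Lpin3 and Serinc2 did. In this set the 3 SH libraries also had less Ttr than most of the EE libraries. The housing difference that chose the genes enters r and rho in both sets, so these values are a description.

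Without libraries 7 and 11, the 2 farthest from the median Ttr of that set, r was 0.82 for Serinc2, −0.80 for Serpinb1a, 0.23 for Magohb and 0.84 for Lpin3, with adjusted permutation p of 0.0394 for all but Magohb (0.780). Without libraries 4 and 9 in the lower set, r was 0.04, −0.15, −0.19 and −0.23. The housing difference enters these r values as well. As deviations from the group means, with resampling within groups, r above the gap was 0.73 for Serinc2, 0.29 for Serpinb1a, 0.04 for Magohb and 0.62 for Lpin3, and no relation of the 8 passed the threshold (lowest permutation p = 0.169, adjusted 0.917).

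Marker lists were set beside the same comparison, and in none of those given here was a gene called by edgeR. Of all 18482 genes tested, 2983 were at an unadjusted p under 0.05 in it, the background for the counts below. All 15 choroid plexus markers were higher in EE (median log2 fold change 2.34, against 0.0047 over all genes tested), with 0 called and 15 at an unadjusted p under 0.05. All 10 mature oligodendrocyte markers were lower (median −0.18), with 0 called and 7 at an unadjusted p under 0.05, and all 8 meningeal markers were higher (median 0.50, 5 at an unadjusted p under 0.05). All 6 thalamic markers were lower (median −0.43, 2 at an unadjusted p under 0.05), as were all 6 neuronal markers (median −0.076, 1 at such a p). Of the 6 microglial markers 5 were lower (median −0.074, 3 at such a p), with P2ry12 at −0.37 (SE 0.07, edgeR adjusted p = 0.0406), just under the fold threshold. The part of these cells and regions in the values of the 4 genes was not tested beyond the covariates below. Of the neutrophil markers, 1 of 8 was abundant enough to be tested, and their summed level was between 0.353 and 2.43 CPM. With the choroid plexus score as a covariate, the averaged log2 fold change was 0.61 for Serinc2 (edgeR adjusted p = 0.0397), −0.62 for Serpinb1a (adjusted p = 0.0250), −0.41 for Magohb (adjusted p = 0.0933) and 0.55 for Lpin3 (adjusted p = 0.143). With the mature oligodendrocyte score, 0 genes were called by edgeR, and the values of the 4 genes were 0.63, −0.38, −0.48 and 0.92 (adjusted p = 0.0740, 0.0907, 0.0740 and 0.0752).

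**Figure D3:**
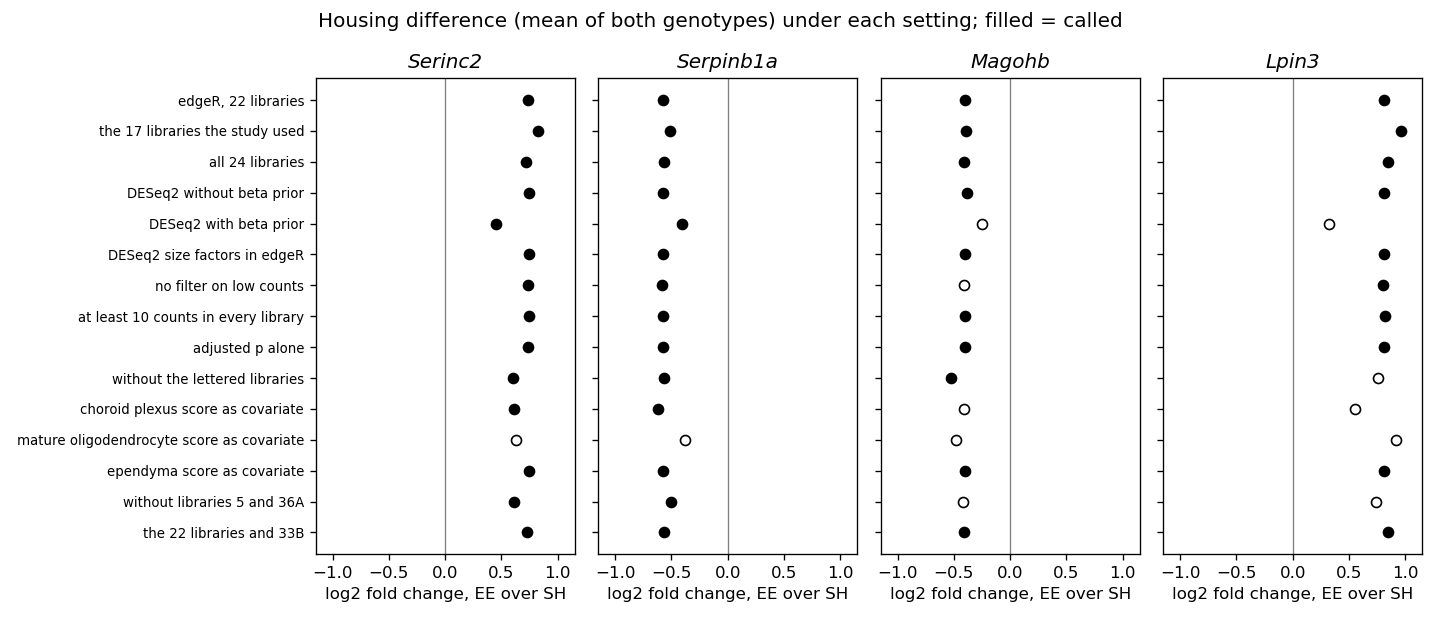
Log2 fold change of EE over SH, averaged over the genotypes, for each gene under the fit of the 22 libraries and 14 other settings, with filled points where the gene was called. Every value kept its direction. Serinc2 and Serpinb1a were not called with the mature oligodendrocyte score as a covariate, and Magohb and Lpin3 were each not called under 5 of the settings.

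No other tested gene of the families and complexes of the 4 genes was called in the fit of the 22 libraries. The 4 genes were chosen for being called and their relatives were not, so the comparisons below are a description. Their counts at an unadjusted p under 0.05 stand beside 2983 of all 18482 genes tested. Of the 5 serine incorporators, 4 were tested, and Serinc2 was the 1 called in EE over SH averaged over the genotypes (27 of 18482 genes, 0.146%). Serinc1, at 927 ± 73.7 CPM (SD, n = 12) in SH the most abundant of the family, had a log2 fold change of −0.13 (SE 0.04, edgeR adjusted p = 0.120), Serinc3 of −0.07 (SE 0.05) and Serinc5 of −0.08 (SE 0.04). Serinc4 had no count in any of the 22 libraries. Of the 14 genes of serine synthesis and serine lipids, 0 were called by edgeR, with a median of −0.02 and 3 at an unadjusted p under 0.05.

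Among the clade B serpins, 6 of 16 were tested and Serpinb1a was the 1 called, with the other 5 higher in EE by value. The transcript of Serpinb1b was 89.0% identical to that of Serpinb1a over 1341 aligned bases. Serpinb1b was at 0.810 ± 0.570 CPM (SD, n = 12) in SH and 2.06 ± 1.34 (n = 10) in EE. The difference was 1.36 on the log2 scale (SE 0.38, edgeR adjusted p = 0.0762), opposite in sign to that of Serpinb1a. The housing groups of Serpinb1b overlapped. Its lowest SH and EE libraries, 5 (0.324 CPM) and 35A (0.451 CPM), lay below the gap in Ttr. Its highest, 2 (2.30 CPM) and 16 (3.98 CPM), lay above it. Library 7, the lowest of MSK1 KD EE (0.689 CPM), also lay above the gap, and a relation of Serpinb1b to Ttr was not tested. The identical stretches that could make reads ambiguous were short, as 3.42% of the 50-base windows of Serpinb1a occurred in Serpinb1b, Serpinb1c or a pseudogene and none of its 100-base windows did. Of the 5 proteases that the protein inhibits, 3 were tested (Casp1, Casp4 and Prtn3) and 0 called by edgeR, with 0 at an unadjusted p under 0.05.

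Magohb was the 1 called of the 15 genes of the exon junction complex and its partners, whose median was −0.04. Magoh, its near copy, was at 12.4 ± 1.35 CPM (SD, n = 12) in SH and 11.9 ± 1.36 (n = 10) in EE, a difference of −0.06 on the log2 scale (SE 0.07, edgeR adjusted p = 0.706). Per kb of exon, the SH level of Magoh was 16.1 ± 1.75 CPM and that of Magohb 1.82 ± 0.207 CPM. The transcripts of the pair were 82.9% identical over 356 aligned bases, with no identical run above 17 bases and no 50-base window in common. However, 55.7% of the 50-base windows of the Magohb-205 transcript also lie in the processed pseudogene Gm44958. It overlaps Magohb on the same strand over 736 bases. Reads there would be ambiguous between them and stay out of the counts. The Magohb counts are therefore uncertain, and its level per kb may be too low beside that of Magoh. Gm44958 itself was at 0.0339 CPM or less in each of the 22 libraries. Since reads that fit both genes were not counted, this low level does not tell how much of it was transcribed. Rbm8a, the partner that binds Magoh, had a log2 fold change of −0.04 (SE 0.04) and Eif4a3, the helicase of the complex, of −0.04 (SE 0.05). Of the 14 nonsense-mediated decay genes, 0 were called by edgeR, with a median of 0.05 and 2 at an unadjusted p under 0.05.

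Lpin3 was the 1 called of the 3 lipins. Lpin1 was at 32.01 ± 1.57 CPM (SD, n = 12) in SH and 32.5 ± 1.12 (n = 10) in EE, a difference of 0.03 on the log2 scale (SE 0.04). Lpin2 was at 109 ± 5.58 and 116 ± 9.96 CPM, a difference of 0.10 on the log2 scale (SE 0.04, edgeR adjusted p = 0.241). Lpin3 was thus the rarest lipin and the one with the largest difference. Of the 26 genes of glycerolipid synthesis, 23 were tested and 0 called by edgeR, with a median of 0.02 and 2 at an unadjusted p under 0.05. Lpin3 overlaps the antisense gene Gm16751 over 7359 bases, and without strand in the counting their reads cannot be told apart there.

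**Figure D4:**
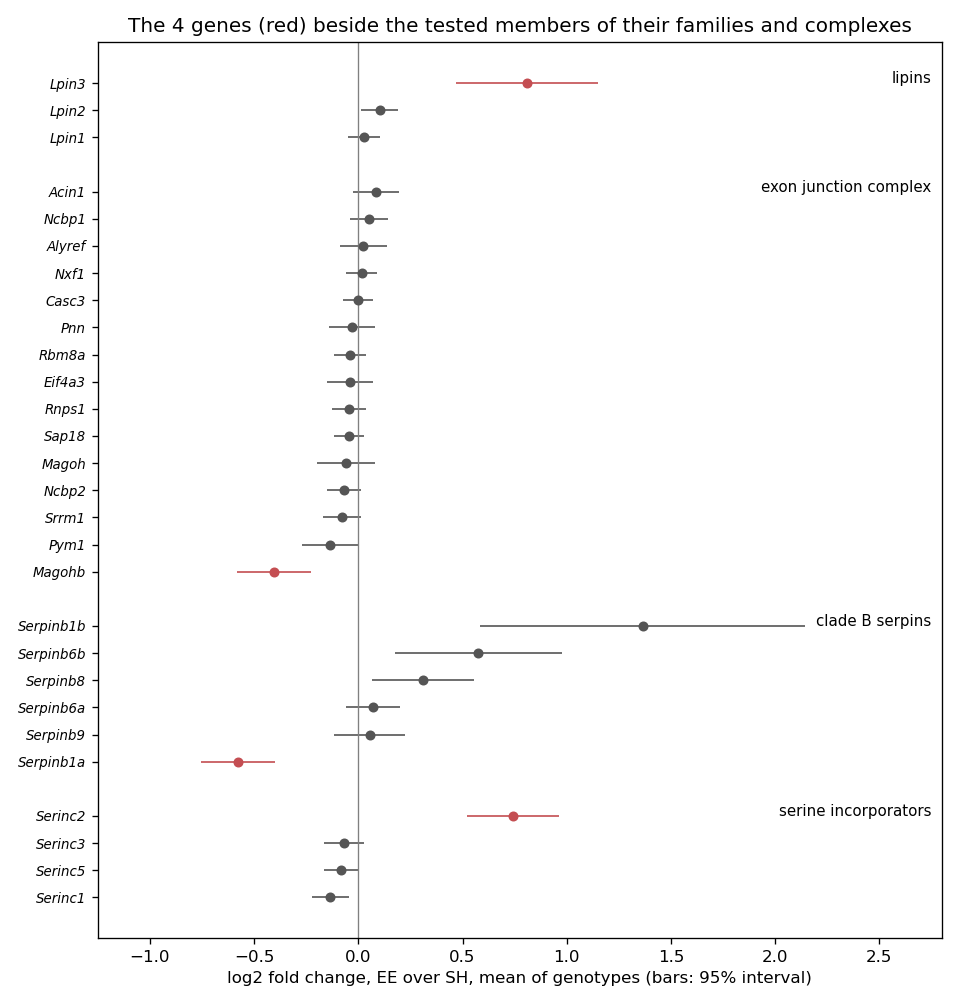
Log2 fold change of EE over SH averaged over the genotypes, with its 95% interval, for the tested serine incorporators, clade B serpins, exon junction complex genes and lipins, with the 4 genes in red. The 4 genes were chosen by this difference, so it was fixed in advance that their intervals excluded 0. The choice also favoured larger values in them than in their relatives. All other tested relatives lay closer to 0 than the red point of their list except Serpinb1b. Its value of 1.36 had the opposite sign to that of Serpinb1a. Serpinb6b, at 0.58 (SE 0.19, adjusted p = 0.132), came next.

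Across the 22 libraries the 4 genes varied partly together. Pearson's r of log2 CPM, which the shared housing difference moves, was −0.81 between Serinc2 and Serpinb1a, 0.69 between Serinc2 and Lpin3, 0.67 between Serpinb1a and Magohb and −0.17 between Magohb and Lpin3. The genes whose levels were most like Serinc2 were H13 (r = 0.87), Spsb1 (0.86), B4galt1 (0.86), Serpinh1 (0.86) and Vgf (0.86). For Serpinb1a they were Lhfpl3 (0.87), Evi2a (0.86), Gjd2 (0.83), Kcnip1 (0.82) and Gm43848 (0.82). For Magohb they were Enox2 (0.89), Nhlrc4 (0.80), Nuf2 (0.79), Gm6712 (0.79) and Prdm12 (0.78), and for Lpin3 Fzd4 (0.80), Ahcyl2 (0.79), Trip10 (0.78), Slc23a2 (0.78) and Nfkb1 (0.77). B4galt1, Lhfpl3, Gm43848 and Trip10 were also among the 27 genes called. All points of these correlations share the libraries, their depth, their housing and their choroid plexus content, and they are given as a description.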

How the data were processed

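Poly-A RNA of whole hippocampus was sequenced as paired reads in 24 libraries. The authors ran Skewer for trimming, STAR (version 2.5 in the submitters' processing notes) for alignment to GRCm38, and HTSeq for unstranded counts of unique alignments per gene. The deposited counts are raw. Reads on no gene or on several (14.0% to 18.6% in the 22 libraries) stayed out of the library sizes. Library 34B (16442 counts) and 33B failed the quality control of the study and were left out, and no pair among the 60 within groups held identical counts.

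Genes kept by filterByExpr were fitted in edgeR 4.0.16 (R 4.3.3) with TMM scaling, a mean for each group and quasi-likelihood F-tests. DESeq2 1.42.0, other sets of libraries, filters and covariates were alternatives, and intervals cover spread between libraries. Log2 CPM used a prior count of 2. The 4 genes and the gene lists were chosen with earlier results of these data known. The genes named were the 4, Ttr, Rps6ka5, their list relatives, called list members and, for each gene, the 5 most correlated. Ttr sets were divided at a log2 gap of 2 or more with 6 or more libraries on each side. Scripts were tested on simulated data, and matplotlib 3.10.9 under Python 3.11.15 made the figures. The authors' table of normalized values and fold changes was not used. Floors cover counting error only.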

Additional observations from a re-analysis of the deposited data

Results flagged for a closer look

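Serinc2 was at 19.1 CPM in MSK1 KD EE library 36A, where the next highest of the 5 libraries of that group was at 12.495 CPM, and this gap held 0.790 of the range of the group. Serpinb1a was at 16.3 CPM in MSK1 KD SH library 5, where the next highest of the 6 libraries was at 11.8 CPM, a gap of 0.640 of the range. Both gaps were above the 95% critical value of Dixon's test, which chance passes in about 1 in 20 groups, and 16 groups of values were tested. Library 36A also had the highest Ttr (5105 CPM) and library 5 the lowest (16.8 CPM).

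Library 33B, an enriched WT library outside the 22, failed the quality control of the study, with 54.1% of its reads on no gene or on several. The share of all genes that lay beyond the SH range in 33B was not computed, so its values are a description. Serinc2 was at 10.96 CPM in it, above the highest of the 12 SH libraries (9.47 CPM in the scaling of all 24 libraries), and Lpin3 was at 3.12 CPM, above the highest SH value of 1.73 CPM. Serpinb1a was at 7.62 CPM in 33B, under the lowest SH value of 9.25 CPM, and Magohb at 2.40 CPM, within the SH range. In 34B a floor of 3 counts stands for 182 CPM. Serpinb1a had 1 count there and the other genes had 0, so that none of the 4 could be measured at this depth.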

How the results depend on the processing

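Every averaged housing value of the 4 genes kept its direction under the 14 other settings and with each of the 22 libraries left out. Serinc2 and Serpinb1a stayed called in all of these except with the mature oligodendrocyte score as a covariate (0.63 and −0.38). Magohb was not called with that score (−0.48), with the choroid plexus score (−0.41), with the β prior of DESeq2 (−0.25), with no filter on low counts (−0.41) or without libraries 5 and 36A (−0.42). Lpin3 was not called with the same scores (0.92 and 0.55), with the β prior (0.32), without libraries 5 and 36A (0.74) or without the lettered libraries (0.76). With 1 library left out, the averaged value ranged from 0.65 to 0.78 for Serinc2, from −0.61 to −0.52 for Serpinb1a, from −0.43 to −0.37 for Magohb and from 0.70 to 0.86 for Lpin3. Magohb and Lpin3 each lost their call in 14 of these 22 fits. Both lost it when any of these was left out: KD SH 1, 3 and 4, KD EE 8, 32A and 36A, WT SH 10, 11, 13, 14 and 15, or WT EE 16 and 17, Magohb also without KD EE 9 and Lpin3 also without WT EE 33A. The number of genes called in the averaged comparison was the least stable value. It was 27 over the 22 libraries, 720 over the 17 of the study, 90 over all 24 and 70 with 33B added, and 80 without the lettered libraries and 2 without 5 and 36A. It was 214 with DESeq2, 2 with its β prior, 44 with its size factors in edgeR, 209 with no filter, 45 with at least 10 counts in every library and 49 by adjusted p alone. It was 9 with the choroid plexus score, 331 with that of ependyma and 0 with that of mature oligodendrocytes, and from 2 (without KD SH 1) to 287 (without WT EE 31B) with 1 library left out. The cause was not tested.

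Genotype differences stayed uncalled for the 4 genes under all settings run. With 1 library left out, the difference of WT over MSK1 KD in EE ranged from −0.040 to 0.23 for Serinc2 and from −0.086 to 0.019 for Serpinb1a, and the interaction from −0.15 to 0.12 and from −0.024 to 0.16. The interaction of Serinc2 was 0.14 without the lettered libraries and 0.19 without 5 and 36A, where that of Serpinb1a was −0.046. Over the 17 libraries, r with Ttr was 0.045 for Lpin3 below the gap and −0.037 for Magohb and 0.83 for Serinc2 above it (adjusted permutation p = 0.0233 for the last), and without the 2 libraries farthest from the median it was 0.82 for Serinc2 and −0.80 for Serpinb1a. The housing difference enters these r values too, so they are a description. No paired analysis was possible because the library codes are unique and the groups share none of them. Depth limits Lpin3 most, at 10 counts in its shallowest library.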

Other observations

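Beside the 4 genes, 23 of the 27 genes called in EE over SH averaged over the genotypes were other genes, named here after their values were seen. Those with an adjusted p of 0.0406, the lowest after Serinc2 and Serpinb1a, were Lpin3 itself and Lhfpl3 (log2 fold change −0.47), Tbc1d2 (0.85), Itga10 (0.64), B4galt1 (0.49), Mpp7 (0.87), Gpr34 (−0.41) and Gm43848 (−0.51). In each of them at least 1 EE library overlapped the SH libraries.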
